A study of Mus musculus with 19 samples.

Results

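The sarcomere is the contractile unit of striated muscle, and the 34 genes described here encode its structural proteins. They were chosen by gene symbol, with earlier results of these data known. All 34 were found among the 55536 genes of the count tables. They comprise 7 genes of the thick filament and M-band, 8 of the thin filament, 13 of the Z-disc, 4 of the intermediate filament and myofibril attachment sites, and 2 assembly chaperones. Ventricular RNA of mice was sequenced in 4 groups. KO-8 (4 libraries) and KO-16 (5 libraries) came from mice carrying an inducible, heart-restricted knockout of Mpc1, sampled 8 and 16 weeks after its induction. WT-8 and WT-16 (5 libraries each) came from wild-type mice at the same times. The MPC1 protein is 1 of the 2 subunits of the carrier that moves pyruvate into mitochondria. The labels do not give the driver of the knockout, the sex or age of the mice, or whether WT mice carried the driver or received the inducer. They do not say whether libraries are separate animals, so the p-values below concern variation among libraries, which may be technical.

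In a sarcomere, myosin thick filaments are held at the M-band by myomesins, and actin thin filaments are anchored in the Z-disc by alpha-actinin. Titin spans from the Z-disc to the M-band and acts as a spring. Z-disc proteins such as filamin C, Xin proteins, muscle LIM protein and the PDZ-LIM family bind actin, alpha-actinin and signalling proteins, and several are known to increase in heart muscle under mechanical load. Desmin filaments and costameres tie neighbouring myofibrils to each other and to the cell membrane. Chaperones such as UNC45B and SMYD1 are needed for myosin folding and thick filament assembly.

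Library totals were 16.5 to 19.5 M counted read pairs in KO-8 (M stands for 1000000), 17.4 to 27.5 M in WT-8, 9.54 to 26.9 M in KO-16 and 8.63 to 19.7 M in WT-16. Levels are counts per 1000000 (CPM), scaled by library total and a trimmed-mean (TMM) factor. One 18S ribosomal RNA gene took 1.71% to 30.0% of the counts in KO-16 and 6.88% to 39.1% in WT-16, but at most 0.0666% in any 8-week library. By sex-linked transcripts, KO-16 replicate 4 and WT-16 replicate 5 were male and the other libraries female. Mpc1 averaged 10.8 ± 1.62 CPM in KO-8 (SD, n = 4) against 74.3 ± 6.82 in WT-8 (SD, n = 5). At 16 weeks it had 26.2, 9.03, 9.25, 15.1 and 15.9 CPM in KO-16, against 61.7 to 83.9 CPM in WT-16. KO-16 replicate 1 thus kept the most Mpc1 of all KO libraries. Atrial markers (Myl7, Myl4, Sln and Bmp10, summed) were at 98.8, 1.8, 1.7, 515.9 and 41.0 CPM in KO-16 replicates 1 to 5, against 1.0, 1.1, 220.1, 69.6 and 7.8 CPM in WT-16. They were at most 6.41 CPM at 8 weeks. Skeletal muscle markers summed to 0.281 to 2.32 CPM in all libraries, with Myod1 at 0 throughout.

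Upstream sequence was available from RefSeq for 29 of the 34 genes (40 start sites, GRCm38.p6). The stretches shown belong to members whose values the results below turn on, 1 from each of 5 genes, and all hold a motif match. Each is the 250 bases before an annotated start, 5′ to 3′ on the gene's strand, with capitals at matches to a named motif on either strand. Xirp2 encodes Xin actin-binding protein 2 of the intercalated disc. Myom3 encodes a myomesin of the M-band. Synpo2l encodes an actin-binding Z-disc protein. The capitals in these 3 mark a match to the binding box of the MEF2 family, transcription factors of muscle genes. Ldb3 encodes the Z-disc protein Cypher/ZASP, and its capitals mark a CArG box, the site bound by serum response factor. Smyd1 encodes a muscle methyltransferase and myosin chaperone, and its capitals mark the letters TATAAA, there on the opposite strand. The stretches lie on chr2:67445752-67446001 plus (Xirp2), chr4:135759465-135759714 plus (Myom3), chr14:20668355-20668604 minus (Synpo2l), chr14:34588682-34588931 minus (Ldb3) and chr6:71262282-71262531 minus (Smyd1).
Xirp2: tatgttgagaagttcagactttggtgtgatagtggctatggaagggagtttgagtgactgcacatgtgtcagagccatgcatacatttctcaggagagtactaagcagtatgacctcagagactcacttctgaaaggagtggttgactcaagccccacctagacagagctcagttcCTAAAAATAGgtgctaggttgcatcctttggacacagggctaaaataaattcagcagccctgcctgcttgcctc
Myom3: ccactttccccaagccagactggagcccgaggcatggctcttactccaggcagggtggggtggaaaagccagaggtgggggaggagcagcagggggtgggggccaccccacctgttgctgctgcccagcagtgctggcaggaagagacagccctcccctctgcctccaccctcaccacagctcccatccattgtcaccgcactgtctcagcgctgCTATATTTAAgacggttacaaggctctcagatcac
Synpo2l: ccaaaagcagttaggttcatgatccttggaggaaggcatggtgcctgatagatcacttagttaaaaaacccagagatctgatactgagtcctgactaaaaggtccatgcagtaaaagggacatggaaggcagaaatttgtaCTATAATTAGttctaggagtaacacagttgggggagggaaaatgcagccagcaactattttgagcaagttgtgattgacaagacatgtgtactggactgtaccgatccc
Ldb3: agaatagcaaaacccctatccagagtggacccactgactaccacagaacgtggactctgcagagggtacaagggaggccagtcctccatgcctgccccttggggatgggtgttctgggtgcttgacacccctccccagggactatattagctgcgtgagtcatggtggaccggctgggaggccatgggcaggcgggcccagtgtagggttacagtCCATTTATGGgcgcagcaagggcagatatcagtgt
Smyd1: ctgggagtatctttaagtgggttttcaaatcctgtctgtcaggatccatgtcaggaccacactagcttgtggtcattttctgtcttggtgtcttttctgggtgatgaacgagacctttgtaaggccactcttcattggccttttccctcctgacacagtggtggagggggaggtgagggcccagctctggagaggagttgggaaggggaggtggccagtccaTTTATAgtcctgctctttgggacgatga
The MEF2 box lay 74 to 65 bases before the start in Xirp2, 35 to 26 in Myom3 and 109 to 100 in Synpo2l. The CArG box of Ldb3 lay 35 to 26 bases before its start, and the TATAAA match of Smyd1 28 to 23 bases before. A MEF2 box was present in 7 of the members' 40 promoters (17.5%), against 2.92% of all 32851 mouse promoters in the same reference. A CArG box was present in 5 of 40 (12.5%), against 1.47% of all. The MEF2 matches were in Mybpc3, Myom3, Myoz2, Synpo2l (both starts), Ttn and Xirp2, and the CArG matches in Ldb3 (both starts), Myl3, Myom1 and Nebl. The stretches of both Ldb3 starts overlap and hold the same CArG box, so the 5 CArG promoters belong to 4 genes. The muscle CAT motif CATTCC was found in 8 of the members' 40 promoters, against 12.6% of all, and the E-box CAGCTG in 10 of 40, against 13% of all. The GATA motif AGATAA was found in 6 of 40 (9.99% of all), and TATAAA in 4 of 40 (12.4% of all). These are descriptions of letters in a 250-base window, and no binding was measured. Not every member described below had a match: Actn2 and Csrp3 had none to any of these motifs at the starts available.

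Most members were abundant transcripts of the ventricle, and 33 of the 34, all but Myom3, were above the median tested gene. The median member had 476 CPM over all libraries, against 7.55 CPM for the median of all 15503 genes that passed the expression filter in the 19-library fit. Together they took 16.9% to 17.3% of nuclear, non-ribosomal counts in KO-8, 16.2% to 17.1% in WT-8, 16.9% to 18.6% in KO-16 and 17.5% to 18.5% in WT-16. Titin alone took 11.5% to 11.9% in KO-8, 10.95% to 11.6% in WT-8, 10.7% to 12.7% in KO-16 and 11.9% to 12.8% in WT-16. The other 33 members took 5.35% to 5.67% in KO-8 against 4.85% to 5.44% in WT-8, and 5.70% to 7.43% in KO-16 against 5.37% to 5.65% in WT-16. The KO-16 libraries therefore all lay above the WT-16 libraries in the share of the other 33, while the 8-week groups overlapped. Xirp2 is among these 33, with 2156 to 9139 CPM in KO-16 against 1797 to 3318 CPM in WT-16. Its part in the higher KO-16 share was not tested, so the share does not show a rise of the members as a set.

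Per kilobase of exon, the ventricular regulatory light chain Myl2 had the highest level in every group (2260 CPM per kb in KO-8, 2270 in WT-8, 1962 in KO-16 and 2211 in WT-16). Tnnc1 (cardiac troponin C), Tpm1 (alpha-tropomyosin), Tnnt2 (cardiac troponin T) and Ttn (titin) were within the first 7 places in each group. Myom3 was last in every group, at 0.458 CPM per kb in KO-8, 0.305 in WT-8, 0.609 in KO-16 and 0.496 in WT-16. Its deposited counts were only 51 to 81 in KO-8, 38 to 72 in WT-8, 25 to 151 in KO-16 and 11 to 41 in WT-16. Xirp2 stood at place 15 of 34 in KO-8 and 17 in WT-8, and at place 6 in KO-16 and 14 in WT-16. Neighbours in this order often did not differ beyond their spread, as the overlapping error bars in the plot of levels show.

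**Figure D1:**
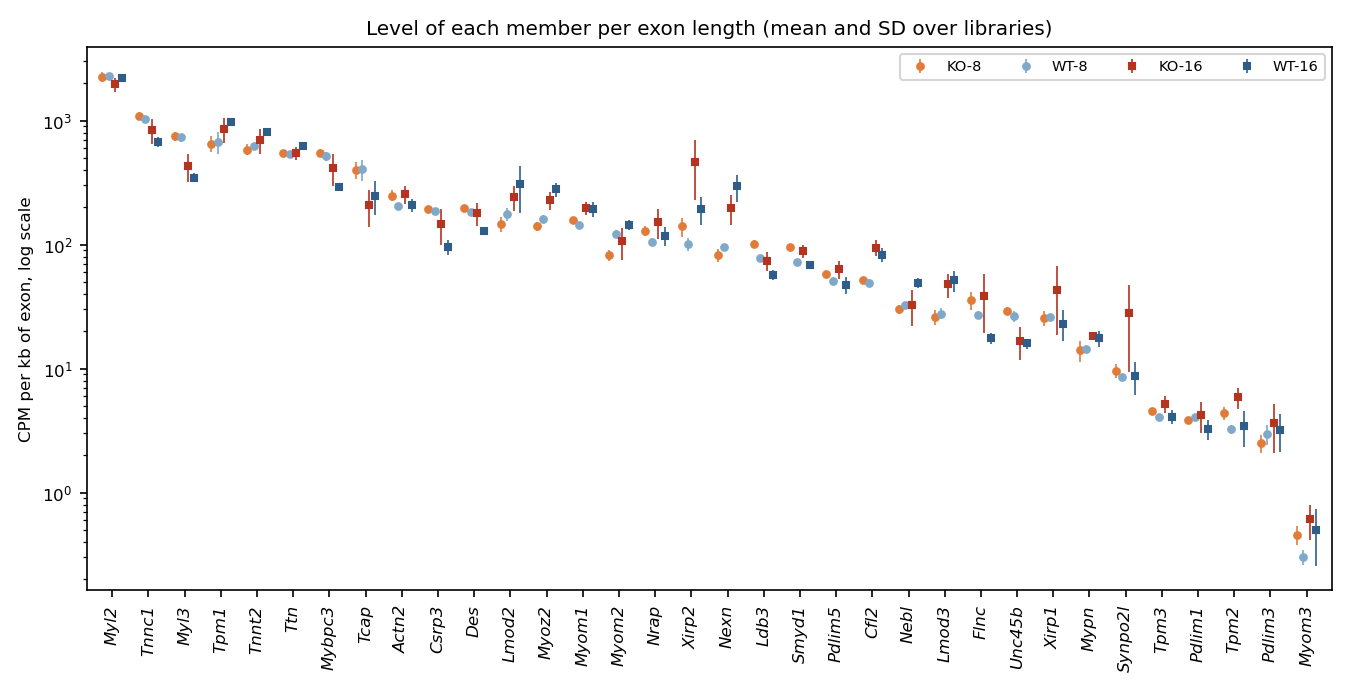
Mean level of each member per kilobase of exon (CPM per kb, log scale), ordered by WT-8, with SD bars over libraries (n = 4 for KO-8, 5 for the other groups). Myl2 is at the top (2260 CPM per kb in KO-8) and Myom3 at the bottom (0.458 CPM per kb in KO-8), and Xirp2, Synpo2l and Xirp1 stand higher in KO-16 than in WT-16.

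The first comparison asked how these genes differed between KO and WT after 8 weeks. Of the 34 members, 9 rose and 1 fell in KO-8 (edgeR quasi-likelihood test on the 8-week libraries, Benjamini-Hochberg adjusted p under 0.05 over 15173 genes). The risers were Smyd1, Ldb3, Tpm2, Actn2, Xirp2, Flnc, Nrap, Pdlim5 and Myom3, by 0.22 (Pdlim5) to 0.59 (Myom3) on the log2 scale, and Myom2 fell. Over all genes tested, 8.21% passed, 4.30% upward and 3.91% downward, and of the members 29.4% passed. The list was made with earlier results of these data known, so its share is a description. The members' abundance was also above that of most genes, and its part in that share was not tested. The median member had a log2 fold change of 0.08 and the median gene 0.00. When the spread was estimated from all 19 libraries, 0 of the 34 members passed and 0.200% of all genes. The common coefficient of variation was 0.093 in the 8-week libraries, 0.228 in the 16-week libraries and 0.171 over all.

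**Figure D2:**
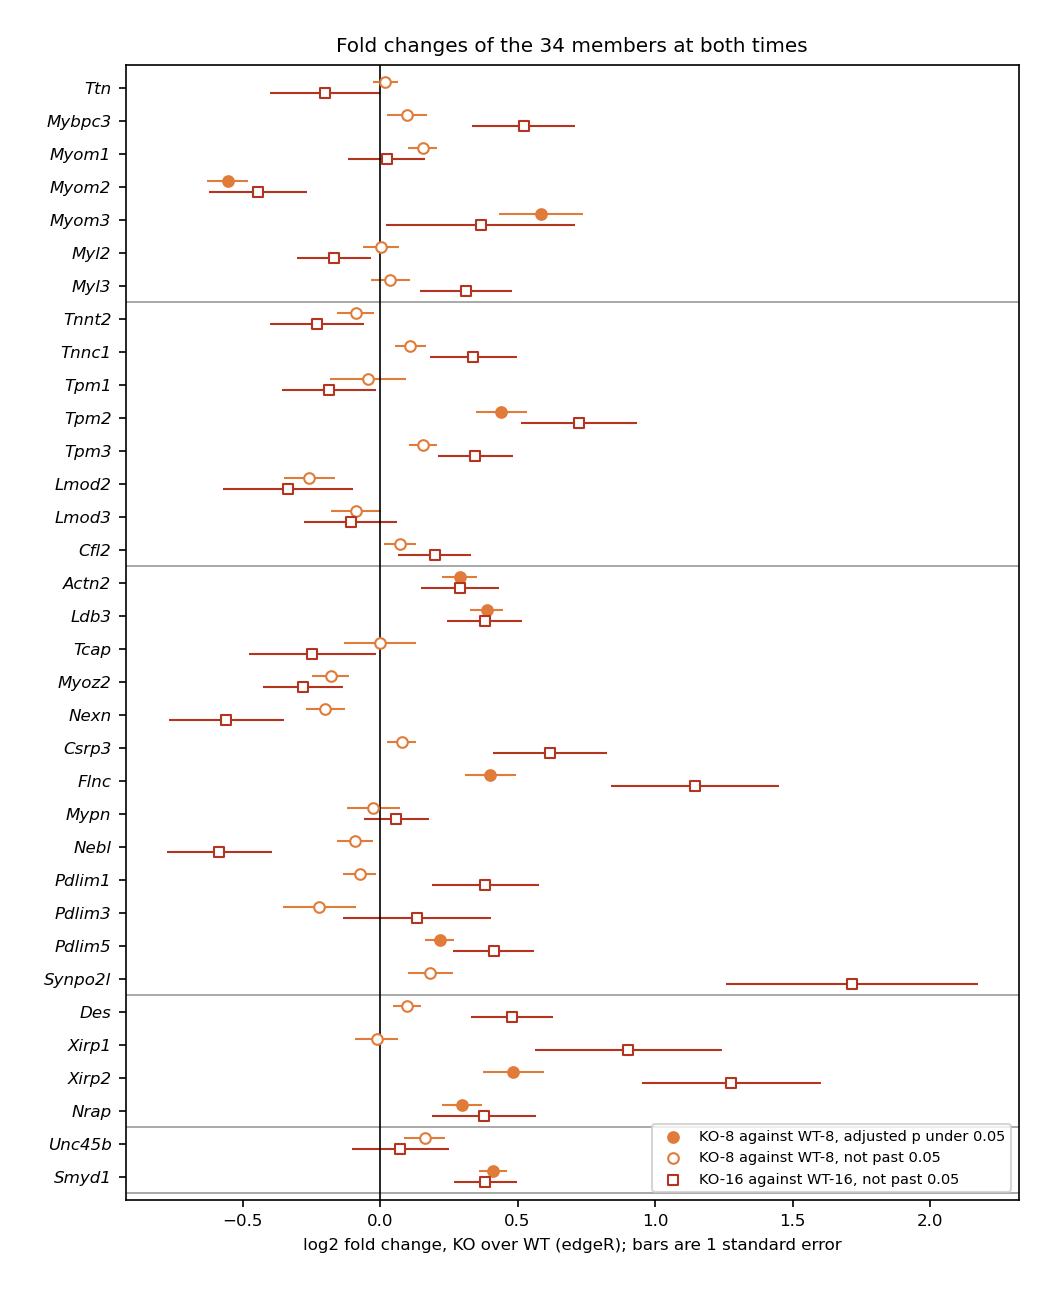
Log2 fold change of each of the 34 members, KO over WT, at 8 weeks (circles) and 16 weeks (squares), with bars of 1 standard error. Filled symbols passed an adjusted p of 0.05 (10 members at 8 weeks, 0 at 16 weeks). Horizontal lines part the 5 role groups, from thick filament and M-band at the top to assembly chaperones at the bottom.

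Among thick filament and M-band genes, the myomesins moved in opposite directions. Myom2 encodes the fast-fibre M-protein that cross-links myosin in the M-band (GRCm38 chromosome 8, 15057653 to 15133541, plus strand). It had 739, 832, 666 and 683 CPM in KO-8, against 1050, 1069, 1203, 999 and 1076 CPM in WT-8. All 4 KO-8 libraries lay below the lowest WT-8 library. Its log2 fold change was -0.55 (SE 0.08, edgeR adjusted p = 0.000637), the only fall among the members that passed. Myom3 had 2.97, 3.30, 2.14 and 2.65 CPM in KO-8, against 2.28, 1.67, 1.66, 1.72 and 1.87 CPM in WT-8. KO-8 replicate 3 lay within the WT-8 range. The log2 fold change was 0.59 (SE 0.15, edgeR adjusted p = 0.0298), but it did not pass in 6 of the 9 fits that left out 1 library, with adjusted p up to 0.0914 without KO-8 replicate 2. Myom1, the main myomesin of the heart, averaged 1661 ± 44.4 CPM in KO-8 (SD, n = 4) and 1503 ± 52.6 in WT-8 (SD, n = 5), without overlap and with an adjusted p of 0.0846 by edgeR. Ttn, Mybpc3 (myosin-binding protein C), Myl2 and Myl3 (the essential light chain) had log2 fold changes of 0.00 to 0.10, and none passed.

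Of the 8 thin filament genes, only Tpm2 passed at 8 weeks. Tpm2 encodes beta-tropomyosin, which in adults is most abundant in slow skeletal and smooth muscle. It had 13.8, 14.1, 12.1 and 10.9 CPM in KO-8, against 8.24, 9.21, 10.2, 9.94 and 9.66 CPM in WT-8, so the groups did not overlap. The log2 fold change was 0.44 (SE 0.09, edgeR adjusted p = 0.00981). Of 5 smooth muscle and pericyte markers, Myh11, Tagln and Cnn1 also rose at 8 weeks. The 5 together summed to 709, 683, 753 and 869 CPM in KO-8 replicates 1 to 4, against 635 to 683 CPM in WT-8. Across the KO-8 libraries these sums ran in the reverse order of the Tpm2 values. The part of smooth muscle cells in the Tpm2 result was not tested. Tpm3, another tropomyosin gene with related copies elsewhere in the genome, had 27.7, 26.8, 27.6 and 28.4 CPM in KO-8, against 24.4, 24.1, 26.4, 24.5 and 25.5 CPM in WT-8. It did not overlap either, but its adjusted p was 0.073 by edgeR. The major tropomyosin Tpm1, troponins Tnnt2 and Tnnc1, leiomodins Lmod2 and Lmod3 (which lengthen thin filaments) and cofilin 2 (Cfl2, which severs actin) had log2 fold changes of -0.26 to 0.11.

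The Z-disc held 4 of the 9 risers. Ldb3 (chromosome 14, 34526603 to 34588682, minus strand) had 593, 650, 564 and 672 CPM in KO-8, against 460, 479, 458, 485 and 503 CPM in WT-8. Every KO-8 library was above every WT-8 library, with a log2 fold change of 0.39 (SE 0.06, edgeR adjusted p = 0.00177). Actn2, sarcomeric alpha-actinin, had 854, 962, 885 and 1071 CPM in KO-8, against 776, 795, 753, 772 and 790 CPM in WT-8. These groups did not overlap, and the log2 fold change was 0.29 (SE 0.06, edgeR adjusted p = 0.0137). Pdlim5, the PDZ-LIM protein ENH, had 517, 499, 496 and 561 CPM in KO-8, against 431, 452, 471, 451 and 440 CPM in WT-8. It also rose without overlap, by 0.22 on the log2 scale (SE 0.05, edgeR adjusted p = 0.0220), and did not pass without WT-8 replicate 4 (0.0527) or KO-8 replicate 4 (0.0594).

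Flnc encodes filamin C, an actin cross-linker that supports Z-discs under load (chromosome 6, 29433256 to 29461883, plus strand). It had 269, 344, 323 and 405 CPM in KO-8, against 242, 260, 236, 263 and 277 CPM in WT-8. KO-8 replicate 1 lay inside the WT-8 range, and the other 3 above it. The log2 fold change was 0.40 (SE 0.09, edgeR adjusted p = 0.0167). The other 9 Z-disc genes did not pass. They were Tcap (telethonin), Myoz2 (calsarcin 1), Nexn (nexilin), Csrp3 (muscle LIM protein), Mypn (myopalladin), Nebl (nebulette), Pdlim1, Pdlim3 and Synpo2l, with log2 fold changes of -0.22 (Pdlim3) to 0.18 (Synpo2l) and adjusted p of 0.109 to 0.998.

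At the attachment sites, Xirp2 (chromosome 2, 67446002 to 67526614, plus strand) had 1548, 1494, 2109 and 1552 CPM in KO-8, against 1008, 1229, 1435, 1164 and 1201 CPM in WT-8. The groups did not overlap, and KO-8 replicate 3 was well above the other 3. The log2 fold change was 0.48 (SE 0.11, edgeR adjusted p = 0.0157). Nrap, an actin-binding scaffold of myofibril assembly and the intercalated disc, had 622, 725, 753 and 742 CPM in KO-8, against 537, 631, 620, 550 and 572 CPM in WT-8. KO-8 replicate 1 fell within the WT-8 range, and the log2 fold change was 0.30 (SE 0.07, edgeR adjusted p = 0.0207). It did not pass in 3 of the 9 fits that left out 1 library, with adjusted p of 0.0504 to 0.0580. Desmin (Des) and Xirp1 were at 0.10 and -0.01.

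Smyd1 had the smallest adjusted p of the 34 (chromosome 6, 71213940 to 71322233, minus strand). It had 450, 438, 432 and 408 CPM in KO-8, against 341, 315, 321, 343 and 319 CPM in WT-8. The lowest KO-8 library exceeded the highest WT-8 library, and the log2 fold change was 0.41 (SE 0.05, edgeR adjusted p = 0.000349). Unc45b, the other chaperone, had 132 ± 9.24 CPM in KO-8 (SD, n = 4) and 119 ± 12.4 in WT-8 (SD, n = 5), an adjusted p of 0.204. In all, 8 members lay higher and 1 lower without overlap at 8 weeks, where 5.01% of tested genes were higher and 5.85% lower without overlap.

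The second comparison asked the same question after 16 weeks. The fold change was larger in size than at 8 weeks in 27 of the 34 members. It was not in the other 7, among them Myom2, Myom3, Smyd1 and Ldb3. The median size was 0.36 at 16 weeks and 0.16 at 8 weeks on the log2 scale. The same count was not made over all genes, so no background stands beside it. The common coefficient of variation was 0.228 in the 16-week libraries and 0.093 in the 8-week libraries. Its part in these sizes was not tested. The KO-16 libraries differed widely from one another, and 0 of the 34 members passed the edgeR test on the 16-week libraries (2.83% of 12597 tested genes passed). At an unadjusted p under 0.05 there were 15 members, 12 higher and 3 lower (44.1%), where 25.4% of tested genes had such a p, 13.7% higher and 11.7% lower. The same 15 members passed in the fit to all 19 libraries, in which 20.5% of all genes passed. That fit uses a spread which the 8-week libraries made smaller, and other tools differed again. DESeq2 called 8 members and 9.26% of genes, and limma voom with quality weights called 14 members higher and 2 lower, with 9.50% of genes higher and 10.5% lower. The median member had a log2 fold change of 0.30, and the median gene 0.01. The members' differences at 16 weeks given below are thus values that did not pass the main test.

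**Figure D3:**
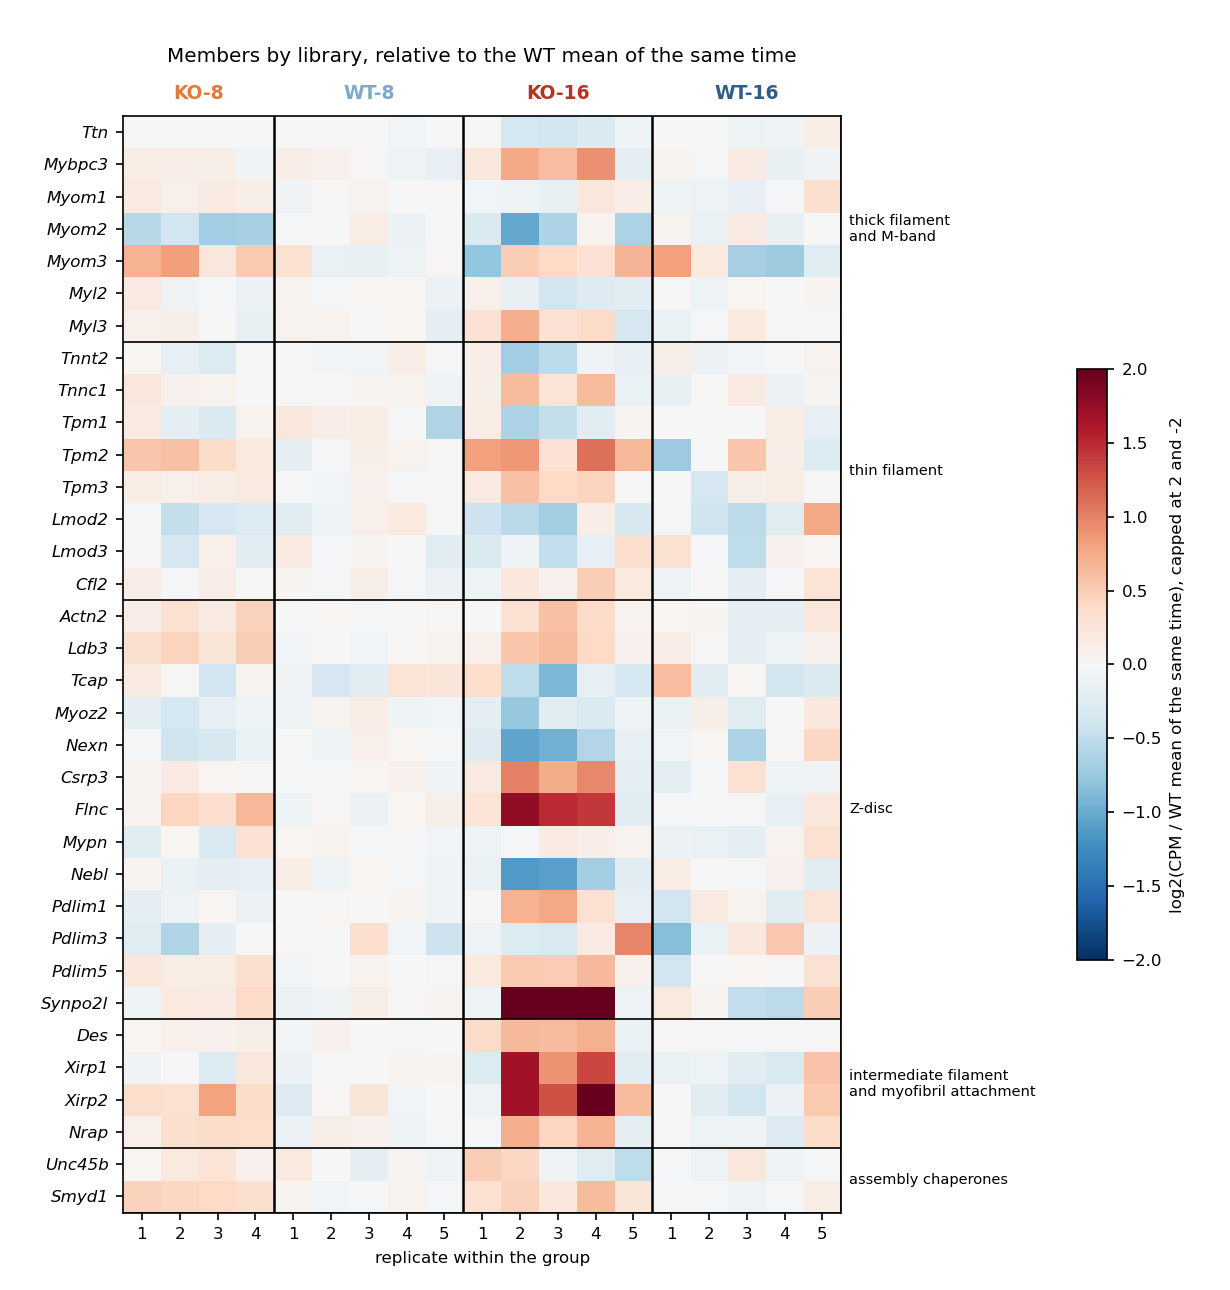
Log2 ratio of each member's CPM to the WT mean of the same time, in every library (columns, numbered by replicate within group) and for every member (rows, by role). The scale is capped at 2 and -2. Synpo2l, Xirp2, Flnc and Xirp1 are far above the WT-16 mean in KO-16 replicates 2, 3 and 4 and near or below it in replicate 1. In KO-16 replicate 5, Synpo2l, Flnc and Xirp1 are also below that mean and Xirp2 is above it. Smyd1 is above the WT mean of the same time in all 9 KO libraries.

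The 4 largest differences at 16 weeks were at the Z-disc and the attachment sites. Synpo2l (chromosome 14, 20658946 to 20668354, minus strand) had 37.7, 221, 192, 166 and 37.9 CPM in KO-16, against 46.3, 41.9, 28.9, 28.3 and 57.2 CPM in WT-16. Replicates 2, 3 and 4 of KO-16 were above every WT-16 library, and replicates 1 and 5 were within the WT-16 range. The log2 fold change was 1.72 (SE 0.46, edgeR adjusted p = 0.0582). Xirp2 had 2156, 7367, 5595, 9139 and 3596 CPM in KO-16, against 2294, 2002, 1797, 2129 and 3318 CPM in WT-16. Only KO-16 replicate 1 overlapped WT-16, and the log2 fold change was 1.28 (SE 0.33, edgeR adjusted p = 0.0518). Flnc had 201, 569, 465, 443 and 143 CPM in KO-16, against 162, 164, 163, 148 and 192 CPM in WT-16. KO-16 replicate 5 was the lowest of all 10 libraries, and the log2 fold change was 1.14 (SE 0.30, edgeR adjusted p = 0.0579). Xirp1, the Xin protein that binds filamin C and cadherin complexes, had 111, 431, 250, 340 and 116 CPM in KO-16, against 122, 125, 116, 108 and 200.4 CPM in WT-16. Its WT-16 value of 200.4 was from replicate 5, and its log2 fold change was 0.90 (SE 0.34, edgeR adjusted p = 0.125).

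**Figure D4:**
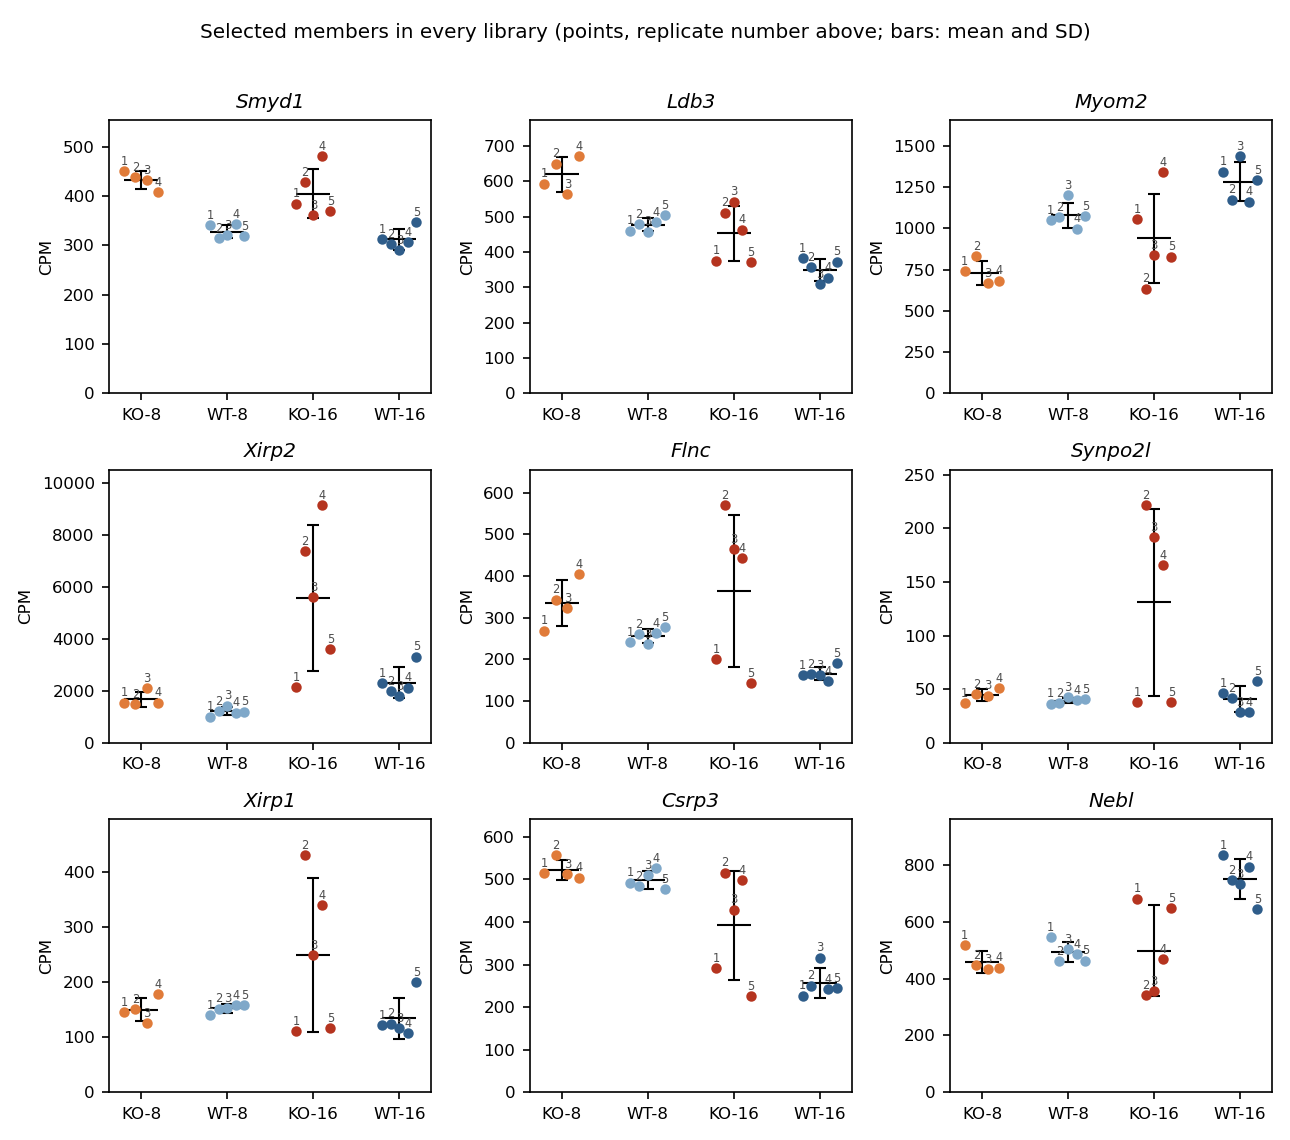
CPM of 9 members in every library (points, with the replicate number above each), with mean and SD per group (n = 4 for KO-8, 5 for the other groups). Smyd1 is higher in KO than in WT without overlap at both times, Myom2 is lower without overlap at 8 weeks, and KO-16 replicates 2, 3 and 4 hold the 3 highest KO-16 values of Xirp2, Flnc, Synpo2l, Xirp1 and Csrp3 and the 3 lowest of Nebl.

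Other members had smaller differences. Csrp3, a LIM protein linked to mechanical sensing at the Z-disc, had 292, 515, 429, 497 and 226 CPM in KO-16, against 227, 250, 316, 242 and 245 CPM in WT-16, a log2 fold change of 0.62 (SE 0.21, edgeR adjusted p = 0.0963). Mybpc3 had 1424, 2066, 1860, 2292 and 1059 CPM in KO-16, against 1259, 1199, 1359, 1102 and 1165 CPM in WT-16. Des had 620, 753, 750, 788 and 438 CPM in KO-16, against 489, 491, 475, 468 and 489 CPM in WT-16. In each of these 3 genes, KO-16 replicate 5 was below every WT-16 library. Their adjusted p by edgeR was 0.0832 (Des), 0.0963 (Csrp3) and 0.114 (Mybpc3). Tpm2 had 17.6, 18.3, 12.3, 21.4 and 15.8 CPM in KO-16, against 6.07, 9.94, 14.7, 10.98 and 8.27 CPM in WT-16. Only KO-16 replicate 3 overlapped WT-16, and the log2 fold change was 0.72 (SE 0.21, edgeR adjusted p = 0.0705). Smyd1 had 384, 429, 361, 481 and 369 CPM in KO-16, against 313, 303, 291, 306 and 347 CPM in WT-16. It was the only member whose groups did not overlap at 16 weeks, where 2.12% of tested genes were higher and 2.56% lower without overlap. Its log2 fold change was 0.38 (SE 0.11, edgeR adjusted p = 0.0749).

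Pdlim5 had 480, 607, 601, 660 and 449 CPM in KO-16, against 326, 421, 434, 415 and 513 CPM in WT-16. Ldb3 had 375, 511, 542, 463 and 371 CPM in KO-16, against 382, 356, 309, 327 and 372 CPM in WT-16. Tpm3 had 28.2, 37.5, 32.9, 33.9 and 24.9 CPM in KO-16, against 24.8, 19.7, 27.1, 27.6 and 25.3 CPM in WT-16. All 3 genes overlapped between the groups, with log2 fold changes of 0.41, 0.38 and 0.35 and edgeR adjusted p of 0.112 to 0.137. Of the other risers at 8 weeks, Actn2 averaged 967 ± 159 CPM in KO-16 and 793 ± 96.2 in WT-16, and Nrap 834 ± 229 in KO-16 and 645 ± 113 in WT-16 (SD, n = 5 each). Myom3 averaged 3.68 ± 1.157 CPM in KO-16 and 2.997 ± 1.44 in WT-16 (SD, n = 5 each).

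The 3 members lower in KO-16 at an unadjusted p under 0.05 were Nebl, Nexn and Myom2. Nebl encodes nebulette, which links thin filaments to the cardiac Z-disc (chromosome 2, 17343909 to 17731464, minus strand). It had 681, 341, 355, 468 and 648 CPM in KO-16, against 834, 746, 731, 794 and 645 CPM in WT-16. KO-16 replicates 2, 3 and 4 were below all WT-16 libraries, and the log2 fold change was -0.58 (SE 0.19, edgeR adjusted p = 0.0915). Nexn, an actin-binding protein that stabilises the Z-disc, had 937, 539, 579, 751 and 1001 CPM in KO-16, against 1084, 1154, 732, 1149 and 1507 CPM in WT-16. Its log2 fold change was -0.56 (SE 0.21, edgeR adjusted p = 0.125). Myom2 had 1055, 634, 838, 1343 and 828 CPM in KO-16, against 1345, 1175, 1440, 1162 and 1294 CPM in WT-16. KO-16 replicate 4 was inside the WT-16 range and the other 4 below it, and the log2 fold change was -0.45 (SE 0.18, edgeR adjusted p = 0.144). The remaining 16 members, Ttn, Myom1, Myl2, Myl3, Tnnt2, Tnnc1, Tpm1, Lmod2, Lmod3, Cfl2, Tcap, Myoz2, Mypn, Pdlim1, Pdlim3 and Unc45b, had log2 fold changes of -0.33 (Lmod2) to 0.38 (Pdlim1).

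Individual KO-16 libraries differed in how many members lay outside the range of the 5 WT-16 libraries. There were 11 above and 2 below in replicate 1, 18 above and 10 below in replicate 2, 16 above and 9 below in replicate 3, 18 above and 6 below in replicate 4, and 5 above and 9 below in replicate 5. Over all tested genes, 14.4% to 31.7% of genes were above and 13.2% to 29.2% below in these libraries, with replicate 2 at the top and replicate 1 at the bottom of both ranges. In the KO-8 libraries, 14 to 17 members were above and 4 to 9 below the WT-8 range, where 21.1% to 25.2% of tested genes were above and 24.3% to 29.8% below.

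Leaving out either of 2 libraries changed the 16-week count. Without KO-16 replicate 1, which kept the most Mpc1, 8 members (7 higher, with Nebl lower) and 13.4% of genes passed. Synpo2l then had a log2 fold change of 1.95 (edgeR adjusted p = 0.00566) and Xirp2 1.48 (0.00294). Without KO-16 replicate 5, 15 members (13 higher, with Nebl and Nexn lower) and 14.2% of genes passed. Leaving out any other 16-week library gave 0 or 1, and leaving out both male libraries gave 0. With the 18S share or the atrial marker level as a covariate the count was also 0.

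Markers of some other cell types differed between KO and WT at both times. The activated fibroblast markers Postn, Cilp and Thbs4 all rose, and summed to 59.0, 694.7, 846.8, 546.8 and 215.0 CPM in KO-16 replicates 1 to 5, against 32.6 to 55.8 CPM in WT-16. At 8 weeks all 3 rose too, to sums of 61.6 to 132 CPM in KO-8 against 32.6 to 50.2 CPM in WT-8. The cardiomyocyte markers Myh6, Tnni3, Actc1, Ryr2 and Pln summed to 35743, 18127, 21134, 21755 and 32568 CPM in KO-16 replicates 1 to 5, against 34475 to 41076 CPM in WT-16. Most of this sum was Myh6, with 23719, 11323, 14083, 14491 and 22841 CPM in KO-16 against 21813 to 28764 CPM in WT-16. Tnni3 had 1395 to 3369 CPM in KO-16 against 2880 to 3460 CPM in WT-16. Actc1 was not lower, with 1914 to 2579 CPM in KO-16 against 1877 to 2189 CPM in WT-16. None of the 5 cardiomyocyte markers passed at 16 weeks, and Ryr2 and Pln fell at 8 weeks. The 5 summed to 28244 to 34245 CPM in KO-8 against 33055 to 35626 CPM in WT-8. The other fibroblast markers summed to 443 to 1057 CPM in KO-16 against 336 to 433 CPM in WT-16, with 2 of 5 tested rising. At 8 weeks they summed to 491 to 805 CPM in KO-8 against 442 to 487 CPM in WT-8, without overlap, and 3 of 6 rose. Endothelial markers summed to 425 to 630 CPM in KO-16 against 397 to 442 CPM in WT-16, with 0 of 4 passing, and to 475 to 546 CPM in KO-8 against 423 to 464 CPM in WT-8, without overlap and with 2 of 4 rising. Smooth muscle and pericyte markers summed to 662 to 975 CPM in KO-16 against 706 to 822 CPM in WT-16, with 1 of 5 rising. Erythroid markers summed to 101.4, 202.1, 1088, 540.2 and 43.7 CPM in KO-16 replicates 1 to 5, against 51.3 to 125 CPM in WT-16. They summed to 247 to 550 CPM in KO-8 against 415 to 928 CPM in WT-8, with 0 of 3 passing at either time. Macrophage markers summed to 28.9 to 54.5 CPM in KO-16 libraries and 17.7 to 34.4 CPM in WT-16 libraries. They summed to 54.3 to 62.4 CPM in KO-8 against 48.9 to 61.9 CPM in WT-8, with 0 of 4 passing at either time. The part of these cells in the members' values was not tested, and in ventricle RNA fewer cells of a type and less RNA per cell cannot be told apart.

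The third comparison asked whether the difference between KO and WT, here called the effect of the knockout, changed between the times. In the fit to all 19 libraries, 0 of the 34 members and 0.00% of 15503 genes passed the test of the difference by edgeR. At an unadjusted p under 0.05 there were 8 members, Synpo2l, Csrp3, Des, Xirp1, Flnc, Xirp2 and Pdlim1 with a larger effect at 16 weeks and Nebl with a lower one, where 12.9% of genes had such a p. DESeq2 also gave 0 members, and 30 genes in all. Limma voom with quality weights gave 5 members, Synpo2l, Csrp3, Des and Xirp1 upward and Nebl downward, where 3.40% of genes passed. The difference in log2 fold change, 16 minus 8 weeks, was 1.55 for Synpo2l (SE 0.53, edgeR adjusted p = 0.312) and 0.92 for Xirp1 (SE 0.40, edgeR adjusted p = 0.348). For Nebl it was -0.49 (SE 0.22, edgeR adjusted p = 0.370). For Smyd1, Ldb3 and Actn2 the differences were -0.02 (SE 0.12), -0.00 (SE 0.15) and 0.01 (SE 0.16). Over all members the adjusted p was 0.312 to 0.997.

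Members also differed between the 2 WT groups. Nexn averaged 1125 ± 276 CPM in WT-16 and 363 ± 17.9 in WT-8, a ratio of 3.10, and Xirp2 2308 ± 593 in WT-16 and 1207 ± 153 in WT-8 (SD, n = 5 each). In the other direction, Myl3 averaged 708 ± 59.8 CPM in WT-16 and 1494 ± 110 in WT-8, and Csrp3 256 ± 34.5 in WT-16 and 498 ± 20.5 in WT-8 (SD, n = 5 each). Between these WT groups, 12 members lay higher and 8 lower without overlap, where 17.6% of genes were higher and 21.6% lower. The 18S share separates the same libraries, so the time, the age of the mice and the library preparation cannot be told apart. No test was made, and KO and WT were compared only within a time or through the difference of their effects.

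Other genes of the sarcomere, costamere, intercalated disc and protein turnover were counted as a companion list of 70 symbols, of which 69 were matched and 66 tested at each time. At 8 weeks 9 rose and 5 fell, where 8.21% of all tested genes passed. In the fit to all 19 libraries 2 of 67 passed, against 0.200% of all genes. At 16 weeks 5 rose and 1 fell, where 2.83% of all tested genes passed. In the fit to all 19 libraries 26 of 67 passed, against 20.5% of all genes. Acta1, the skeletal alpha-actin that the adult heart keeps low, had 354, 375, 798 and 458 CPM in KO-8, against 63.4, 86.8, 96.02, 41.4 and 35.3 CPM in WT-8 (log2 fold change 2.96, SE 0.30, edgeR adjusted p = 7.27e-05). At 16 weeks it had 127, 1774, 924.5, 861 and 262 CPM in KO-16, against 10.4, 6.14, 16.6, 16.8 and 50.6 CPM in WT-16 (log2 fold change 5.32, SE 0.74, edgeR adjusted p = 0.00781). Acta1 did not overlap between genotypes at either time. Fhl1, a LIM-domain protein that binds the titin spring region, rose by 1.48 at 8 weeks (SE 0.13) and 2.39 at 16 weeks (SE 0.38) on the log2 scale, with edgeR adjusted p of 1.94e-05 and 0.0111.

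The small heat-shock proteins Hspb6, Cryab and Hspb7, which bind sarcomere proteins, rose at 8 weeks by 0.88 (SE 0.07), 0.43 (SE 0.06) and 0.37 (SE 0.06) on the log2 scale. Lrrc10, a Z-disc and T-tubule leucine-rich repeat protein, fell, with a log2 fold change of -0.52 (SE 0.09). Ankrd1, a titin-binding ankyrin-repeat protein, rose at both times. At 8 weeks it had 697, 708, 1444 and 1090 CPM in KO-8, against 366 to 660 CPM in WT-8. At 16 weeks it rose by 2.58 (SE 0.38) on the log2 scale (edgeR adjusted p = 0.00822). Myh7, the slow beta-myosin heavy chain, had 234, 1597, 1202, 1424 and 472 CPM in KO-16, against 136, 346, 214, 103 and 153 CPM in WT-16 (log2 fold change 2.38, SE 0.47, edgeR adjusted p = 0.0278). Ankrd23 rose by 1.39 (SE 0.29) and the actin-binding protein gene Palld fell by 0.82 (SE 0.18) on the log2 scale. KO-16 replicates 2, 3 and 4 had the 3 highest KO-16 values of Acta1, Ankrd1, Fhl1, Myh7 and Ankrd23.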

How the data were processed

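Ventricular total RNA was depleted of ribosomal RNA and sequenced as stranded paired reads of 51 cycles, per the labels' protocols. The values are counts of read pairs per gene that the authors deposited. Per the file headers, featureCounts 1.6.3 assigned each pair to the gene it overlapped most, used the reverse strand and did not count multi-mapped reads, on GRCm38 with Ensembl 96, so reads that match several tropomyosin copies are lost. STAR, RSEM, SAMtools, FastQC and cutadapt 1.16 are named in the submitters' processing notes. The 16-week libraries had 2 count files each, which were summed.

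Genes were tested with edgeR 4.0.16 in R 4.3.3 (TMM factors, filterByExpr, quasi-likelihood F test, Benjamini-Hochberg adjustment over all genes tested, threshold 0.05). Each time was fitted alone, and the difference of the knockout effects in all 19 libraries. Standard errors (SE) were the size of the log2 fold change divided by √F. Alternatives were a fit to all 19 libraries, RLE factors, no filter, DESeq2 1.42.0, limma 3.58.1 voom with quality weights, a table without mitochondrial and rRNA genes, a fit without the male libraries, a covariate for the 18S share, each library left out, and the earlier or later file alone. The atrial marker level as a covariate was added after seeing the data. The fits were tested on simulated data, and the outcome is not given here. Python 3.11.15 with pandas and matplotlib drew the tables and figures.

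All 34 members are named. Those past the threshold in a fit to 1 time or to all libraries are given per library, and of the companion list up to 6 genes at each time with the smallest adjusted p. The members and lists were chosen with earlier results of these data known, so their counts are descriptions. Levels per kilobase use the exon length in the files. The median member had 1723 to 18922 read pairs per library, while Myom3 had 11 to 151. Promoter sequences are from RefSeq.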

Additional observations from a re-analysis of the deposited data

Results flagged for a closer look

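Among 136 sets of libraries checked (34 members in 4 groups), 9 had 1 library far from the others of its group by Dixon's test at the 95% level. Chance gives about 1 in 20 such sets. Their values are given here without a cause.

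In KO-8, Mybpc3 in replicate 4 was at 2030 CPM, where the other 3 libraries were at 2329 to 2379 CPM, and Xirp2 in replicate 3 was at 2109 CPM against 1494 to 1552 CPM in the others. Without KO-8 replicate 3 Xirp2 still passed the test at 8 weeks, and its log2 fold change was the lowest of the fits that left out 1 library, 0.35. In WT-8, Tnnt2 in replicate 4 was at 5334 CPM against 4657 to 4826 CPM in the other 4 libraries. In KO-16, Pdlim3 in replicate 5 was at 32.4 CPM against 13.3 to 18.4 CPM in the others.

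In WT-16, replicate 5, a male library, was far above the others in 3 members. Myom1 was at 2530 CPM there and at 1807 to 2000 CPM in the other 4, Lmod2 at 1037 CPM and 421 to 591 CPM, and Xirp1 at 200.4 CPM and 108 to 125 CPM. WT-16 replicate 3, which had the highest atrial marker level of its group (220.1 CPM), was far above in 2 members. Csrp3 was at 316 CPM there and at 227 to 250 CPM in the other 4, and Unc45b at 83.7 CPM and 67.2 to 70.3 CPM. The part of sex or of atrial tissue in these values was not tested.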

How the results depend on the processing

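At 16 weeks the main count of 0 members by edgeR became 15 in the fit to all 19 libraries, 16 by limma voom with quality weights, 8 by DESeq2, 6 with no filter, 1 without mitochondrial and rRNA genes, and 2 with the earlier file alone or the later file alone. Leaving out 1 library gave 0 to 15. The companion count of 6 became 26, 21, 12 and 13 under the first 4 of these, 1 without the male libraries, 3 when the 18S share was a covariate, and 2 to 19 with 1 library left out. At 8 weeks the 10 members became 0, and the 14 companions 2, in the fit to all 19 libraries. They were 7 to 12 and 9 to 14 with 1 library left out, and 10 to 12 and 14 to 17 under the other alternatives. The 9 companions were without WT-8 replicate 3 or 4. Lmod2 and Nexn, lower in KO-8, passed with no filter (edgeR adjusted p = 0.00658 and 0.0405). Both also passed without KO-8 replicate 1 (edgeR adjusted p = 0.0372 and 0.0373). The count of 0 for the difference became 5 by limma voom with quality weights and 0 to 1 with 1 library left out (Synpo2l without KO-16 replicate 1, Des without KO-16 replicate 5).

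Over all genes, 356 passed at 16 weeks, 3181 in the fit to all 19 libraries, 2514 by voom with quality weights, 1166 by DESeq2, 1034 with no filter, 28 with the 18S covariate, 10 without the male libraries and 29 to 1856 with 1 library left out. No all-gene count is given for the 16-week fit without mitochondrial and rRNA genes or for the single-file fits. At 8 weeks 1245 genes passed, and 31 in the fit to all 19 libraries. For the difference 0 passed, and 30 by DESeq2, 527 by voom with quality weights, 43 with no filter and 0 to 613 with 1 library left out. The causes of these changes were not tested. Of the 34 members' log2 fold changes at 8 and 16 weeks, 10 turned their sign under some alternative, none of them past the threshold there. With 1 library left out, those at 8 weeks ranged from -0.0611 to 0.0436 (Myl2), -0.0048 to 0.0957 (Myl3), -0.159 to 0.0283 (Tpm1), -0.0731 to 0.103 (Tcap), -0.143 to 0.0537 (Mypn) and -0.10 to 0.0597 (Xirp1). Those at 16 weeks ranged from -0.0328 to 0.113 (Myom1), -0.146 to 0.298 (Pdlim3) and -0.0555 to 0.184 (Unc45b). At 8 weeks Myl2 also turned to -0.0065 in the fit to all 19 libraries, -0.0031 with no filter and -0.0029 by voom with quality weights, and Tcap to 0.0419 by voom and 0.00054 without mitochondrial and rRNA genes. At 16 weeks Pdlim3 turned to -0.0682 by voom, and Lmod3 to 0.0787 and Unc45b to -0.109 with the 18S covariate. Among the differences between times named in the text, those near 0 turned too, over -0.0905 to 0.0199 (Smyd1), -0.0758 to 0.0606 (Ldb3) and -0.0775 to 0.0748 (Actn2) with 1 library left out. Smyd1 was at 0.0134 with no filter and 0.0194 by voom, and Ldb3 at 0.0345 and 0.0212 under the same, 0.0011 without mitochondrial and rRNA genes and 0.0146 without the male libraries. No paired analysis was possible because the labels number each library uniquely and share no replicate number between groups. Depth limits 5 members that had under 100 read pairs in at least 1 library, Myom3 (lowest 11), Tpm2 (24), Pdlim3 (36), Pdlim1 (52) and Tpm3 (98).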

Other observations

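Within protein families, members' shares of the summed level per exon length were compared as descriptions, without a test. Of the 3 myomesins, Myom2 made up 34.1% ± 2.61 in KO-8 (SD, n = 4) and 45.8% ± 1.24 in WT-8 (SD, n = 5), and Myom1 65.8% ± 2.64 in KO-8 and 54.1% ± 1.24 in WT-8. At 16 weeks Myom2 made up 28.2% to 40.0% in KO-16 and 37.6% to 48.4% in WT-16, so the groups overlapped. Of the tropomyosins, Tpm1 made up at least 98.1% in every library. Tpm2 made up 0.528% to 0.969% in KO-16 and 0.210% to 0.512% in WT-16, without overlap, and 0.522% to 0.808% in KO-8 and 0.357% to 0.737% in WT-8. Of the Xin proteins, Xirp2 made up 89.3% to 93.8% in KO-16 and 88.3% to 90.5% in WT-16, and 80.9% to 89.1% in KO-8 and 77.8% to 82.0% in WT-8.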
